A study of Mus musculus with 31 samples.

Results

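The regions described here are the ATAC-seq peaks that parental NIH-3T3 cells carried at 10 genes of the basement membrane. These genes encode collagen IV chains (Col4a1, Col4a2, Col4a3 and Col4a4), laminin chains (Lama4, Lamb1 and Lamc1), nidogens (Nid1 and Nid2) and perlecan (Hspg2). They were chosen by name out of 21938 protein-coding genes. A peak was counted at a gene when its interval lay within 1 kb of any annotated transcription start site (TSS) of that gene, in the gene body, or within 50 kb of either end of the gene. Of 63456 peaks in the genome, 111 were counted: 65 overlapped the body of a member and 46 lay only in the flanks. Among these 111 peaks, 11 were promoter peaks, that is, within 1 kb of a TSS of a member.

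NIH-3T3 is an established line of mouse fibroblasts, and ATAC-seq maps open chromatin by letting the transposase Tn5 insert sequencing adapters into accessible DNA. The parental group held 1 library, made from 50000 cells with 0.5 µM Tn5, with no TF transgene and no doxycycline named in its labels. The other 30 samples of the series, lines overexpressing 1 of 13 TFs (2 replicates each) and 4 replicates of an rtTA3G control, all under 500 ng/ml doxycycline for 48 h, were not analysed here. As the group is a lone library, replicate error cannot be given and no test between samples was made, and all values describe this library. Intervals are exact Poisson 95% intervals of the number of fragments over a peak summit and cover counting error only.

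Basement membranes are thin extracellular sheets under epithelia and endothelia and around muscle, fat and nerve cells. They are built from a laminin network bound to cell surface receptors and a collagen IV network, which nidogens and the heparan sulfate proteoglycan perlecan tie together. The products of Col4a1 and Col4a2 form the collagen IV found in nearly all basement membranes, whereas those of Col4a3 and Col4a4 join the Col4a5 chain in a network known from the kidney glomerulus, lung and inner ear, and the genes of both pairs are transcribed head to head from a shared promoter region.

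The sequences at the starts of the collagen IV pairs, read from the GRCm38 genome, are shown because a peak covered the starts of Col4a1/Col4a2 and none lay at those of Col4a4/Col4a3. Capitals mark a CCAAT box (CCAAT) or a GC box (GGGCGG), searched on both strands, and the 5′ end of each run is its lower coordinate. For Col4a1/Col4a2 a run of 30 bases that begins at the peak summit and another that spans both canonical starts are given, both within annotated exon 1 sequence of these genes. For Col4a4/Col4a3 the run is the 71 bases between the Col4a4 start and the nearest annotated Col4a3 start, 55 bp before the canonical one.
Col4a1/Col4a2 from the summit, chr8:11312753-11312782, + strand: cgcgCCGCCCgaggagctccCCAATttgtt
Col4a1/Col4a2 over the starts, chr8:11312801-11312830, + strand: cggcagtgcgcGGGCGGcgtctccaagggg
Col4a4/Col4a3, chr1:82586850-82586920, + strand: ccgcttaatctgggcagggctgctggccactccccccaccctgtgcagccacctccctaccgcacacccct
Over the 300 bases centred between the canonical starts, the Col4a1/Col4a2 region held 1 CCAAT box and 2 GC boxes, all in these runs, with a GC content of 74.0% and 37 CpG dinucleotides (observed/expected ratio 0.901). The same window of Col4a4/Col4a3 held none of these letters, with a GC content of 63.7% and 15 CpG dinucleotides (ratio 0.525).

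The runs of 41 bases that follow come from distal peaks, meaning peaks over 1 kb from any annotated TSS of any gene. For each member, the distal peak with the highest fold enrichment is shown where the window at its summit (100 bases on each side) holds the letters of the AP-1 motif (TGANTCA, in capitals), which was the case for 7 of 10 members and for 55.2% of the 3769 protein-coding genes at least as long as the shortest member that have a distal peak in the gene or its 50 kb flanks. They show the most frequent of the motifs searched in distal peaks in its local context.
Col4a2, chr8:11411851-11411891, + strand: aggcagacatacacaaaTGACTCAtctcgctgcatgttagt
Col4a3, chr1:82701646-82701686, + strand: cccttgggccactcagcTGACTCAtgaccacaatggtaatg
Col4a4, chr1:82429240-82429280, + strand: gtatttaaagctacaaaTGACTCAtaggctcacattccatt
Lama4, chr10:38994861-38994901, + strand: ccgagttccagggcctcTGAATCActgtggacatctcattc
Lamb1, chr12:31271591-31271631, + strand: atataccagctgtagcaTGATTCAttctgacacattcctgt
Lamc1, chr1:153300583-153300623, + strand: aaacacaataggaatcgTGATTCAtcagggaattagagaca
Hspg2, chr4:137501179-137501219, + strand: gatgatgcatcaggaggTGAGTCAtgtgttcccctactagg
The middle of the marked letters lay between 22 and 60 bp from the summit. The letters searched allow any base in the middle. That base was C or G in 4 runs (Col4a2, Col4a3, Col4a4 and Hspg2) and A or T in 3 (Lama4, Lamb1 and Lamc1). The share of 55.2% likewise counts any middle base and was not computed for C or G alone. Each run was classed by its match nearest the summit, and the Lamc1 window held 2 matches. By any match in the window, 31 of all 36 distal peaks of the members with AP-1 letters had C or G in the middle. The highest distal peaks of Col4a1, Nid1 and Nid2 by fold held no such letters in their summit windows. At Nid1 this depended on the scale. Its distal peak with the most fragments (74 against 64, fold 14.2 against 14.3) did hold AP-1 letters.

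A promoter peak was present at 8 of the 10 members, all but Col4a3 and Col4a4. Over all protein-coding genes the share was 53.7%. Members are long genes, from 60.5 kb (Nid2) to 145 kb (Lama4), and among the 4193 protein-coding genes at least as long as Nid2 the share was 64.6%. In 6 members the canonical promoter (250 bases before the TSS to 50 after) had a CpG observed/expected ratio of at least 0.6, and all 6 had a promoter peak, against 81.9% of the 10224 protein-coding genes with such promoters. The other 4 members were Lama4 (ratio 0.575) and Nid1 (0.565), which had promoter peaks, and Col4a4 (0.489) and Col4a3 (0.475), which had none. In counts, 11788 of all 21938 protein-coding genes had a promoter peak, and 8376 of these had a ratio of at least 0.6. The median over all coding promoters was 0.555.

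**Figure D1:**
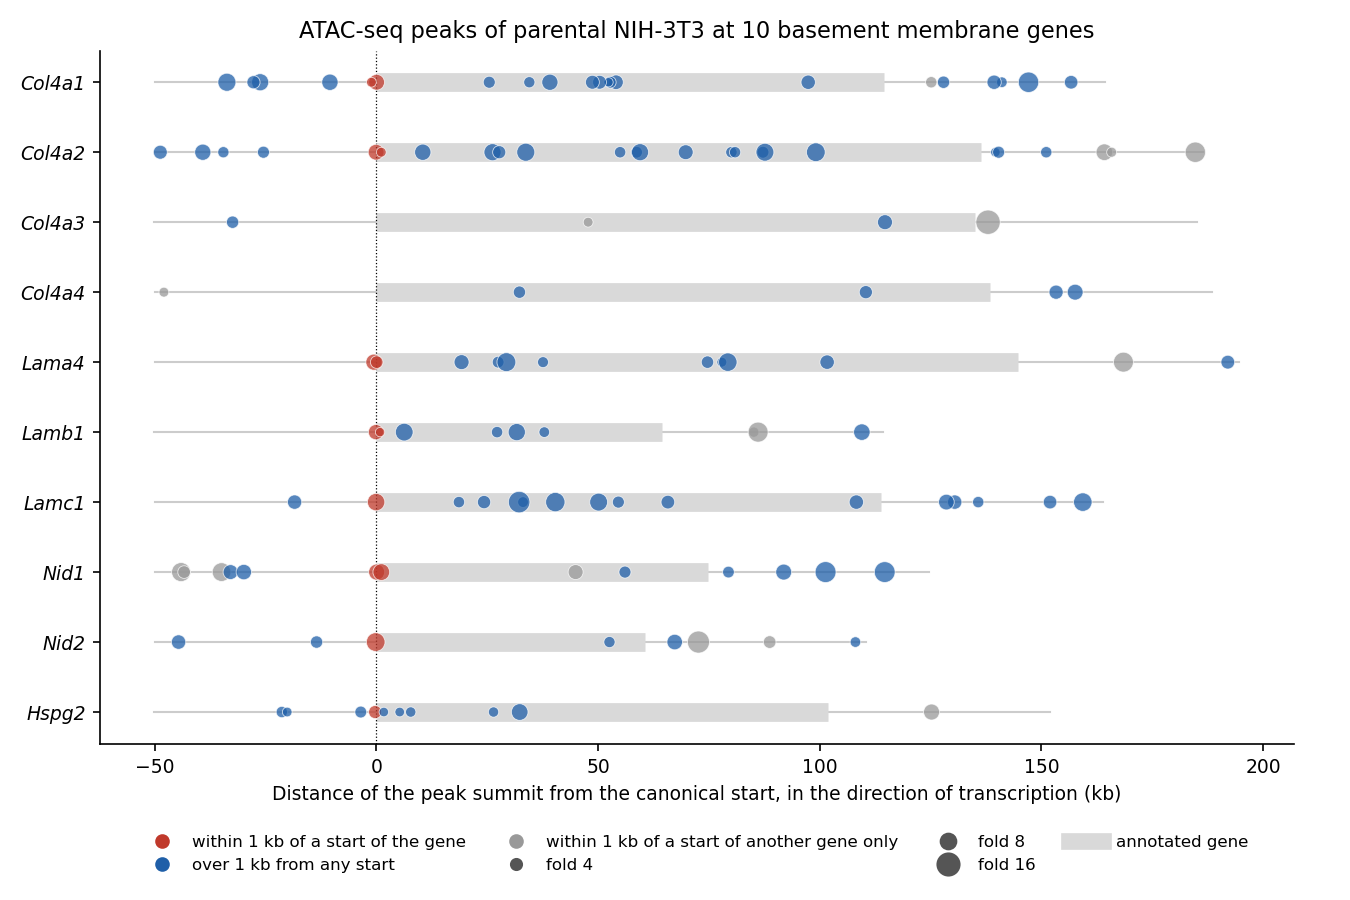
Peaks at each member by distance of the summit from the canonical start in kb (x axis), 1 gene per row, with the annotated gene as a grey bar and its 50 kb flanks as a thin line. Point size gives the fold enrichment and colour the position: the rows of Col4a3 and Col4a4 hold 4 and 5 points and none at the start, whereas the other 8 rows have a promoter peak.

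The collagen IV chains include both members without a promoter peak. The canonical starts of Col4a1 and Col4a2 lay 21 bp apart on opposite strands and overlapped, so that each start was inside exon 1 of its partner. A peak of 1021 bp, chr8:11312163-11313183, covered both starts, with 642 bp on the Col4a1 side and 357 bp on the Col4a2 side. Its fold enrichment was 8.15 (summit pileup plus 1, divided by the local expected pileup plus 1), its −log10 q was 25.2, and 43 fragments [31.1 to 57.9] covered its summit. The summit lay 73 bp from the Col4a1 start and 52 bp from the Col4a2 start, in the untranslated part of Col4a1 exon 1. Another shared promoter peak, chr8:11313735-11314100 in intron 3 of Col4a2, was lower (fold 3.17, 16 fragments).

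The canonical starts of Col4a4 and Col4a3 lay 127 bp apart on opposite strands, with a gap between them and transcription leading away on both sides, and no peak lay within 1 kb of any TSS of either gene. The peak nearest to this pair of starts was 32276 bp away, in intron 4 of Col4a4 (chr1:82554439-82554573, fold 4.99, 18 fragments). For comparison, 1005 pairs of protein-coding genes had canonical starts head to head within 1 kb; 91.6% of them shared a promoter peak and 802 had a peak over both starts. Col4a4/Col4a3 was 1 of 67 such pairs with no promoter peak at either gene. The remaining collagen IV pair, Col4a6/Col4a5 on the X chromosome, had starts 1309 bp apart, outside the 1 kb limit, with a peak at the Col4a5 start (fold 6.57, 24 fragments) and none within 1 kb of a Col4a6 TSS.

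**Figure D2:**
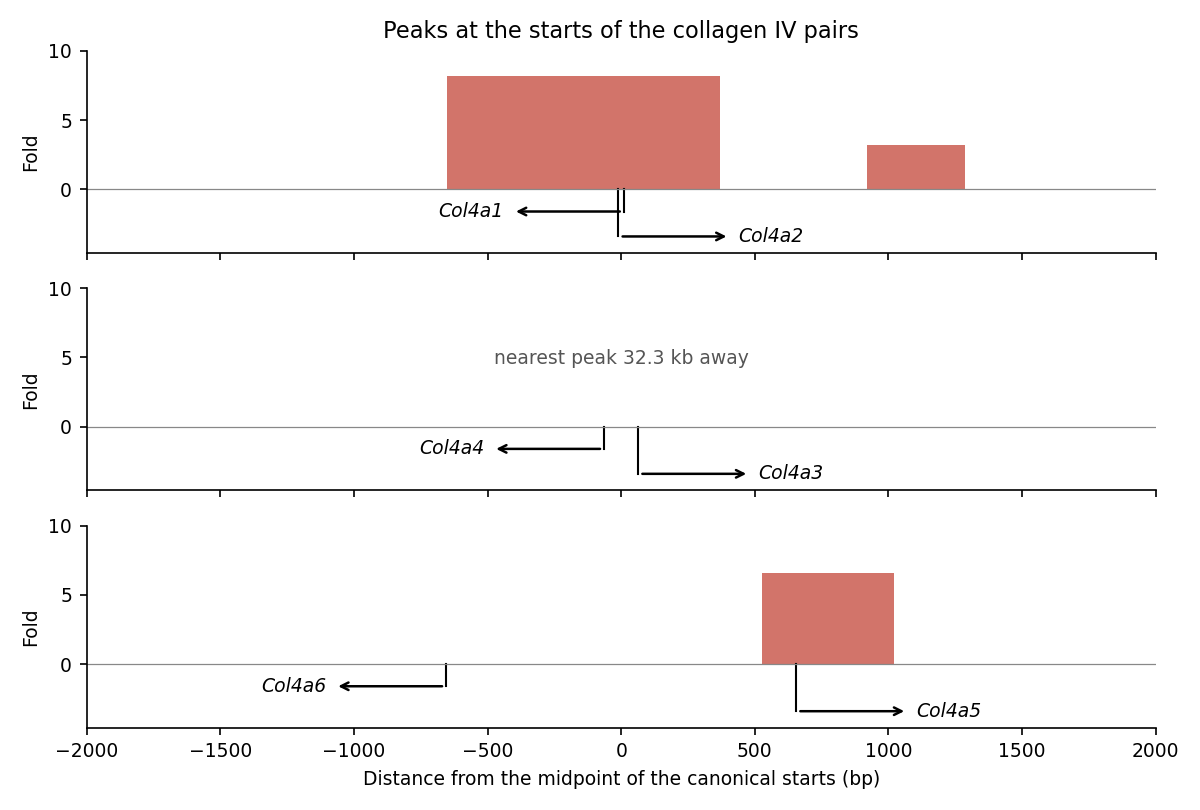
Fold enrichment (y axis) and extent of the peaks within 2000 bp of the midpoint between the canonical starts of the 3 collagen IV pairs (x axis, bp); arrows mark the starts and directions. The Col4a1/Col4a2 peak of fold 8.15 spans both starts, the Col4a4/Col4a3 window is empty, and the Col4a6/Col4a5 window holds a peak of fold 6.57 at Col4a5.

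The contrast between Col4a1/Col4a2 and Col4a4/Col4a3 extended over the gene bodies. The 251 kb spanned by Col4a1 and Col4a2 held 22 distal peaks, 0.877 per 10 kb, with fold up to 11.5. The 274 kb spanned by Col4a4 and Col4a3 held 3 distal peaks, 0.110 per 10 kb, with fold up to 7.35. On average, a distal peak fell every 11.4 kb in the former pair and every 91.2 kb in the latter.

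Within the Col4a1/Col4a2 locus, Col4a1 had 9 distal peaks in its body and Col4a2 had 13. In Col4a1, 5 of them lay in intron 2 and 3 in intron 1, and in Col4a2 the largest groups lay in introns 3 and 4. The highest distal peak of Col4a2 was in intron 16 (chr8:11411657-11412238, fold 11.5, 61 fragments [46.7 to 78.4]). That of Col4a1 lay beyond its 3′ end, 147 kb from its start (chr8:11165441-11166008, fold 13.7, 81 fragments [64.3 to 100.7]). For Col4a3 it was in intron 43 (fold 7.35, 27 fragments), and for Col4a4 it lay beyond the 3′ end inside the gene Rhbdd1 (fold 8.22, 34 fragments).

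All 3 laminin members had promoter peaks. Lamc1, which encodes the gamma chain shared by most laminins, had 1 broad promoter peak over its start (chr1:153331934-153333947, 2014 bp), with 111 fragments [91.3 to 134], a fold of 9.96 and a −log10 q of 69.8. Lamb1, a beta chain, had 2: one over the start (chr12:31264862-31265500, fold 7.55, 46 fragments [33.7 to 61.4]) and a low one in intron 1 (fold 2.85, 18 fragments). Lama4, the alpha chain of vascular, muscle and fat basement membranes, also had 2. The peak of higher fold lay before the start with its summit 543 bp upstream (chr10:38964790-38965293, fold 8.47, 41 fragments [29.4 to 55.6]), and the other covered the start (fold 5.19, 25 fragments [16.2 to 36.9]). Their intervals overlapped, so the order of these Lama4 peaks is left open. The upstream peak of Lama4 was the only promoter peak of the 11 with AP-1 letters at its summit.

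Each laminin member also had a distal peak inside the gene with fold above 10. In Lamc1 it lay in intron 1, 32.2 kb from the start (chr1:153300354-153300937), with the highest fold of all distal peaks counted at the members, 15.1, and 109 fragments [89.5 to 131]. Intron 1 of Lamc1 measures 69.4 kb and held 8 of the 9 distal peaks of the gene body. In Lama4 the highest was also in intron 1, 29.3 kb from the start (chr10:38993919-38995111, fold 11.7, 74 fragments [58.1 to 92.9]), and 4 of 8 distal body peaks lay in this intron of 39.3 kb. In Lamb1, whose intron 1 is 1.09 kb long, it was in intron 3, 6.30 kb from the start (chr12:31271109-31271945, fold 10.3, 87 fragments [69.7 to 107]).

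The nidogens, linkers between laminin and collagen IV, resembled each other in having few distal peaks inside the gene: 1 in Nid1 (intron 12) and 1 in Nid2 (intron 15). Their promoters differed. Nid2 had 1 peak over its start (chr14:19750528-19751507) with the highest promoter fold of the members, 11.4, a −log10 q of 46.1 and 64 fragments [49.3 to 81.7]. Nid1 had 2 peaks, one over the start (fold 8.40, 31 fragments) and a slightly higher one in intron 1 with its summit 1127 bp downstream (chr13:13438334-13438844, fold 9.19, 34 fragments [23.5 to 47.5]). The intervals of these Nid1 peaks overlapped, so their order is left open. Nid1 had its highest distal peaks beyond the 3′ end, 101.3 kb and 114.7 kb from the start (fold 14.3 with 64 fragments and fold 14.2 with 74 fragments), whereas the highest distal peak of Nid2 reached fold 7.88 with 29 fragments.

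Hspg2, which encodes perlecan, had the lowest promoter fold of the 8 members with such a peak. The peak covered a start (chr4:137468354-137468819, fold 5.56, −log10 q 15.1, 36 fragments [25.2 to 49.8]). A further 4 distal peaks in intron 1 had folds between 2.96 and 3.51. The highest distal peak was in coding exon 2, 32.3 kb from the start (chr4:137500861-137501370, fold 9.10, 44 fragments [32.0 to 59.1]), and it was the 1 distal body peak of the members with a summit in an exon.

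The order of the promoters depended on the scale. By fold enrichment it ran from Nid2 through Lamc1, Nid1, Lama4, the shared Col4a1/Col4a2 peak and Lamb1 to Hspg2. By fragments over the summit of the same peaks it ran from Lamc1 (111) through Nid2 (64), Lamb1 (46), Col4a1/Col4a2 (43), Lama4 (41) and Hspg2 (36) to Nid1 (34). The local expected pileup was 10.2 fragments at Lamc1, 5.65 at Hspg2 and 2.81 at Nid1, the last being the most common value over all peaks. By fragments, only the interval of Lamc1 lay apart from that of its neighbour in the order, and all other neighbours overlapped.

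Compared with all protein-coding genes that have a promoter peak, 6 of the 8 members (Col4a1, Col4a2, Lama4, Lamb1, Nid1 and Hspg2) lay under the median in fold and also in fragments. The shared Col4a1/Col4a2 peak counts here for both genes. The median of the highest promoter peak was fold 9.86 (quartiles 7.27 and 12.4) and 64 fragments. Of these coding genes, 12.4% had a lower fold than Hspg2, 33.5% a lower fold than Col4a1/Col4a2, 50.9% a lower fold than Lamc1 and 66.5% a lower fold than Nid2. In fragments, 86.4% had fewer than Lamc1 and 16.1% had fewer than Nid1.

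At the same 6 members a distal peak in the gene or its 50 kb flanks had more fragments than the promoter peak. Col4a1 and Col4a2 share 1 promoter peak, so these 6 are not separate promoters. Over all coding genes with a promoter peak the share was 34.9%, and over the 2707 of them at least as long as Nid2 it was 46.1%. The intervals of the promoter and distal peak lay apart at 4 of these members: Col4a1 (43 against 81 fragments), Lama4 (41 against 74), Lamb1 (46 against 87) and Nid1 (34 against 74). With distal peaks inside the gene body alone, the distal peak was higher at 5 members and the intervals lay apart at 2, Lama4 and Lamb1. Shares over coding genes were not computed for separate intervals or for the gene body alone, so these counts describe the members only. The distal peak is the highest of all those counted at a gene. Neither the shares nor the intervals allow for the number of distal peaks searched, and more peaks give a higher maximum. At Lamc1 both peaks were nearly equal (111 and 109 fragments), and Nid2 was the 1 member whose promoter peak lay above its highest distal peak with separate intervals (64 against 29).

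**Figure D3:**
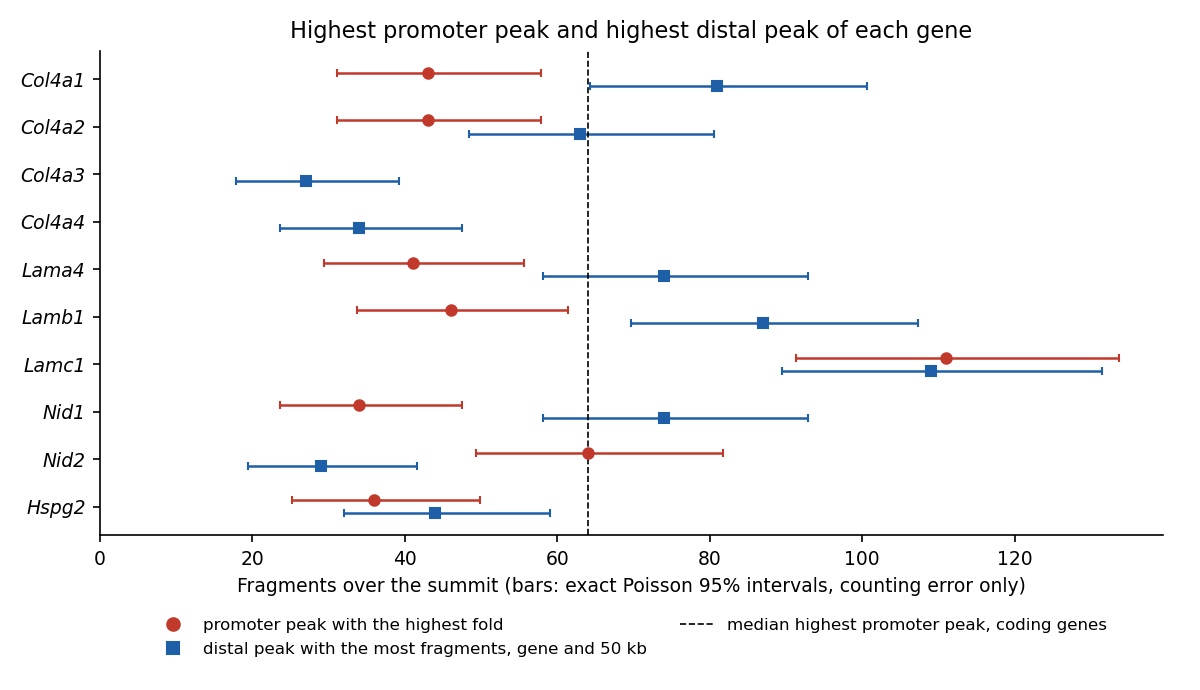
Fragments over the summit (x axis) of the promoter peak with the highest fold (circles) and of the distal peak with the most fragments within the gene and 50 kb (squares) for each member, with exact Poisson 95% intervals; the dashed line is the median highest promoter peak of coding genes, 64. Squares lie to the right of circles at 6 of 8 members, and Col4a3 and Col4a4 have squares only. Col4a1 and Col4a2 share the promoter peak drawn for each.

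All 10 members had at least 1 distal peak in the gene body, as did 76.8% of the 4193 long coding genes. The members together had 84 distal peaks, 53 in gene bodies and 31 in flanks, with a median fold of 6.08, compared with 5.54 over the 47192 distal peaks of the genome. Density in the gene body ran from 0.953 per 10 kb in Col4a2 through 0.790 in Lamc1, 0.787 in Col4a1, 0.621 in Lamb1, 0.553 in Lama4 and 0.491 in Hspg2 to values of 0.165 in Nid2, 0.144 in Col4a4, 0.134 in Nid1 and 0.0740 in Col4a3. The median of the members was 0.522, and that of the long coding genes was 0.163 with an upper quartile of 0.364. Thus 6 members lay above that quartile, and the nidogens, Col4a3 and Col4a4 lay near or under the median.

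**Figure D4:**
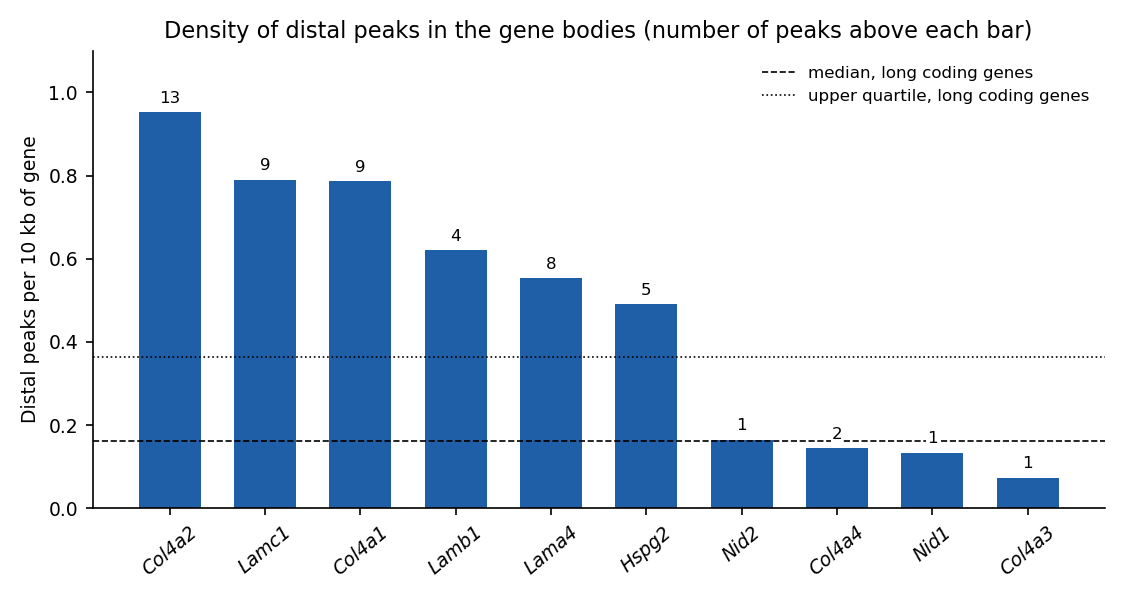
Distal peaks per 10 kb of gene body (y axis) for each member, with the number of peaks above each bar; lines give the median (0.163) and upper quartile (0.364) of the 4193 coding genes at least as long as the shortest member. Bars of 6 members exceed the upper quartile.

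Of the 53 distal body peaks, 52 had their summit in an intron; introns made up 92.9% of the summed gene length, and over the long coding genes 89.1% of 15860 distal body peaks (counted once per gene) had an intron summit. Intron 1 of the canonical transcripts held 19 of them (35.8%) and made up 26.1% of the summed gene length. The matching share over the long coding genes was not computed, so no preference for intron 1 at the members is read from this count. These 19 came from Lamc1 (8), Lama4 (4), Hspg2 (4) and Col4a1 (3). Intron 1 of Col4a3 (54.0 kb), Nid1 (25.8 kb) and Col4a4 (15.1 kb) held none.

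Among the 84 distal peaks, 36 held AP-1 letters in the window of 100 bases on each side of the summit (42.9%, exact binomial 95% interval 32.1 to 54.1). The share was 44.4% over all distal peaks. TEAD letters (GGAATG) were in 23 (27.4%, interval 18.2 to 38.2) against 16.9%, and RUNX letters (TGTGGT) in 25 (29.8%, interval 20.3 to 40.7) against 22.7%. These intervals treat the 84 peaks as separate draws, although the peaks cluster at 10 genes of 1 library. They also do not allow for the number of motifs searched. A difference between the members and all distal peaks was not tested. At least 1 distal peak with AP-1 letters lay at 9 members (all but Nid2), with TEAD letters at all 10 and with RUNX letters at 9 (all but Lamb1), against 86.9%, 59.8% and 69.7% of the 3769 long coding genes with a distal peak. These shares were not matched for the number of distal peaks per gene, and more peaks give more chances of a match. The largest numbers of peaks with AP-1 letters were at Col4a1 (10 of 18 distal peaks) and Col4a2 (9 of 20), which have the most distal peaks and share some of them, and the largest shares were at Nid1 (5 of 7) and Lamb1 (3 of 5). TEAD letters were in more distal peaks than AP-1 letters at Lama4 (5 and 3 of 9), Col4a4 (3 and 1 of 4) and Nid2 (2 and 0 of 5). The median fold of the members' distal peaks was 6.76 with AP-1 letters and 4.86 without, and over all distal peaks it was 6.30 and 5.16. A match describes the letters in a window and not binding of a factor.

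Canonical promoters were searched for the same letters. GC boxes were in 7 of 10 member promoters against 45.2% of coding promoters, missing in Col4a3, Col4a4 and Lama4. CCAAT boxes were in 5 (Col4a1, Col4a2, Lamb1, Nid1 and Nid2) against 38.6%. AP-1 letters were in none of the 10, against 6.57% of coding promoters, TEAD letters in that of Nid1 alone, against 13.0%, and RUNX letters in that of Nid2 alone, against 14.9%. A TATA box (TATAAA) was in the promoter of Lama4 only, against 12.6%, and the CTC box was in those of Lama4 and Nid1, against 9.79%. The promoters of Col4a3 and Col4a4 held none of the 10 motifs searched.

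Other genes of the basement membrane were counted by list, to be read beside the 53.7% of all protein-coding genes with a promoter peak. Of 9 other collagen IV and laminin chains on the list, 2 had a promoter peak: Col4a5 (fold 6.57) and Lamb2 (5.75), a beta chain of muscle and kidney laminins.

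Of 16 other components, 5 had a promoter peak: the proteoglycan Agrn (fold 10.3), Fbln2 (9.09), the collagen-binding Sparc (8.71, with 123 fragments), Col18a1 (5.26) and Tinagl1 (3.85). Of 11 receptors of laminins and collagen IV, 9 had one, highest at the integrin subunits Itgb1 (fold 12.0) and Itga1 (10.4) and at dystroglycan, Dag1 (9.28), and the integrin subunit Itga2 and the laminin receptor Bcam had none. Of 12 genes for folding, export and crosslinking of collagen IV, 11 had one, highest at the export receptor Mia3 (fold 13.7), the collagen galactosyltransferase Colgalt1 (13.6) and the COPII coat protein Sec23a (13.2), and the crosslinking enzyme Loxl2 had none. In all, 27 of these 48 genes had a promoter peak (56.25%), near the 53.7% of all protein-coding genes. Within 5 kb of a TSS, 35 of the 48 had a peak, against 62.8% of all protein-coding genes.

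**Figure D5:**
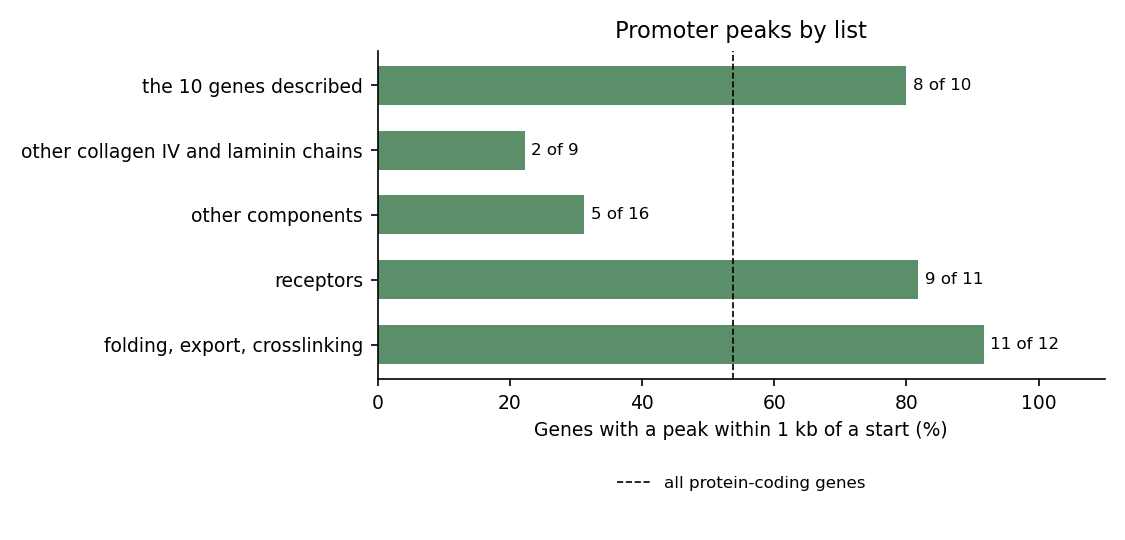
Share of genes with a peak within 1 kb of a TSS (x axis, percent) for the members and 4 other lists, with counts at the bars; the dashed line is the share over all protein-coding genes, 53.7%. The members, receptors and assembly genes lie above the line, and the other chains (2 of 9) and other components (5 of 16) lie under it.

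The fibroblast label was set against marker genes. All 10 fibroblast markers had a promoter peak, against 53.7% of all protein-coding genes, with folds from 3.41 (Thy1) through a median of 6.29 to 10.5 (Fn1). Of the markers of other cell types, 2 of 6 epithelial genes (Krt14 and Grhl2, but not Epcam or Cdh1), 3 of 6 endothelial genes (Pecam1, Cdh5 and Tek), 1 of 5 blood cell genes (Spi1) and 0 of 4 podocyte genes had one. The 3 endothelial genes had a median fold of 8.40, above that of the fibroblast markers, with 12.8 at Cdh5 (114 fragments), 8.40 at Pecam1 and 3.58 at Tek. Both medians lay under the 9.86 of all coding promoters with a peak. The part of other cell types in the members' peaks was not tested.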

How the data were processed

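ATAC-seq of 1 parental NIH-3T3 library was analysed. Per the submitters' processing notes the tools included STAR 2.5.3a, Picard, SAMtools and MACS2 2.1.1.20160309, with mouse genome mm10; the authors called peaks on this library alone, on paired-end fragments. The deposited peak list gives per peak a fold enrichment (a ratio to the local expected pileup), −log10 p-value, −log10 q-value, a score derived from the q-value, and the summit position. The total depth of the library was not used here.

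Gene models were GENCODE M21 on GRCm38, the same assembly as mm10. The canonical transcript of a gene was the one with the longest coding sequence. The fragment pileup at each summit was solved from fold enrichment and −log10 p, and came out whole within 0.02 fragments for all but 2 of 63456 peaks. Motif letters were searched on both strands in windows of 100 bases on each side of a summit and in 300 bases at canonical starts. The 10 motifs were AP-1, TEAD, RUNX, GC box, CCAAT box, CTC box, CRE, NFI, E-box (CACGTG) and TATA box. All sequences were read from the GRCm38 genome. The RefSeq promoter table held 6 of the 10 members and its sequences were not printed. The runs of 41 bases were centred on the AP-1 letters nearest the summit, because runs centred on the summit did not contain them.

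Members and lists were chosen with earlier results of these data known, and 1 gene of the lists is not reported here. Named genes were all members; in other lists, the genes with a promoter peak or those without, whichever were fewer, plus the 3 with the highest fold; and for each member the distal peak with the highest fold. Col4a6 and other peaks or markers given were chosen after their values were seen. The pileup, TSS assignment and motif steps were checked on simulated data. Alternatives were stricter peak thresholds, other distances and windows, coding transcripts only and summit positions. Calculations ran in Python 3.11.15 with SciPy 1.17.1 for intervals, pandas 2.3.3 and NumPy 2.4.6 for tables, and matplotlib 3.10.9 for plots.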

Additional observations from a re-analysis of the deposited data

How the results depend on the processing

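Members with a promoter peak numbered 8 of 10 under all 8 alternatives tried for that count. The share of protein-coding genes with a promoter peak, 53.7%, was 52.0% with q of 1e-05 or below, 48.8% with fold of at least 5, 48.7% with the peak over the TSS itself, 52.0% within 500 bp, 62.8% within 5 kb, 52.0% with coding transcripts only and 53.0% by summits. Peaks in the gene bodies fell from 65 to 38 with fold of at least 5. Flanking peaks numbered 18 within 20 kb and 83 within 100 kb, against 46 within 50 kb. The AP-1 share of the members' distal peaks rose from 42.9% to 54.2% with fold of at least 5, where it was 50.5% over all distal peaks. With the middle base of the letters held to C or G, an alternative chosen after seeing the data, it was 36.9%, and 36.5% over all distal peaks. The other 29 of 40 alternatives, that one included, left counts within 1.5 times and shares within their exact binomial 95% interval.

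No paired analysis was possible because the parental group holds a lone library with no replicate. Summits of the members' peaks held from 11 to 131 fragments, and the order of peaks whose intervals overlap is left open. A region without a peak is absent from the authors' list, by their threshold at this depth or by a later filter, and not shown to be closed. Accessibility was measured, not expression of the genes.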

Other observations

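At 5 of the 10 members the peak with the highest fold in the gene and its 50 kb flanks lay at a TSS of another gene, and at the other 5 it was distal. Among the 3900 protein-coding genes at least as long as the shortest member and with a peak in this range, the highest fold was at a TSS of another gene in 25.03%, at a distal peak in 51.8% and at the gene's own promoter in 23.2%. The highest peak near Col4a3 was at the start of Mff and C430014B12Rik, beyond the 3′ end of Col4a3 (chr1:82724779-82725482, fold 19.4, 131 fragments). Near Nid2 it was at Rtraf (fold 15.99), near Col4a2 at Naxd (13.6), near Lamb1 at Dld (13.1) and near Lama4 at Tube1 and Fam229b (12.9). Of the 46 peaks in the flanks alone, 14 lay within 1 kb of a TSS of a gene that is no member. These neighbours were named after their values were seen.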
